A study of Mus musculus with 14 samples.

Results

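The vacuolar-type proton pump (V-ATPase) was followed in single retinal ganglion cells (RGCs) through all array probe sets that carry the name of 1 of 10 subunit genes and of no other gene. The 10 genes are Atp6v1a, Atp6v1b2, Atp6v1c1, Atp6v1d, Atp6v1e1, Atp6v1f, Atp6v1h, Atp6v0b, Atp6v0c and Atp6v0d1. They were chosen by name, but with earlier results of these data known. The array annotation gave 24 probe sets for 9 of them, out of 34945 probe sets for 18193 genes in all. Atp6v0c, which codes for the main subunit of the membrane ring of the pump, has no probe set of its own in that annotation and was not measured here. Of the 9 measured genes, 7 were detected in all 14 cells and the other 2, Atp6v1h and Atp6v1a, in 13 and 11 cells.

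The cells were 14 tdTomato+ cells picked by hand from papain-dissociated retinas of adult mice and are named cell 1 to cell 14. The mice carried 1 copy each of PV-Cre, which drives Cre recombinase from the parvalbumin gene Pvalb, and of Ai9, a reporter from which red fluorescent tdTomato is made in cells where Cre is or once was active, on a mixed background of C57BL/6 and 129 strains. All cells formed 1 group with no control, and no source used here names the animal of a cell, so the cells do not replicate a condition, no difference was tested, and each SD given is a spread over single cells. Each cell was hybridised to its own Affymetrix mouse genome array, after a PCR screen of the libraries. The screen looked for Sncg and for the absence of single markers such as rhodopsin for rods and glutamine synthetase for Müller glia.

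Detection of a probe set required a MAS5 signal of 8 or more times its array's median, and each gene was read from whichever of its probe sets had the highest average log2 signal. The number of detected probe sets ranged from 4191 in cell 5 to 11910 in cell 12, and cells 13 and 14 came next to cell 5 with 4362 and 5828. Of 13 measured RGC markers, 8 were detected in all 14 cells, and a cell held 9 to 13 of them. Cells 3 and 6 stood apart by their rod transcripts, with 11 of 13 measured rod markers each against 2 to 5 in the other cells. Of 12 measured Müller glia markers a cell held 1 to 6, with the 6 in cell 6. Because only the 3' ends of transcripts are copied well and 35 cycles of PCR follow, a gene that was not detected may still have been expressed.

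The V-ATPase is a rotary motor that spends ATP to move protons across membranes. Its peripheral sector, V1, binds and splits ATP and turns a central shaft, and its membrane sector, V0, holds a ring of proteolipid subunits that carries the protons. Neurons use the pump to acidify lysosomes and endosomes and to load synaptic vesicles. Vesicular transporters use the proton gradient to draw transmitter into the vesicle. Many genes of the lysosome and of this pump are known targets of the transcription factor TFEB, which binds a sequence built on the E-box CACGTG.

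Promoter windows from 250 bases before to 50 bases after the start of the gene were read from RefSeq (GRCm38.p6) for the 7 genes with an entry, among them Atp6v0c with 3 windows. Both strands were searched, and since the E-box reads the same on both, each site counts once. CACGTG was found in 3 of the 7 genes, in Atp6v1a, Atp6v0b and Atp6v0d1, beside 8.09% of 27025 genes and 7.15% of all 32851 windows. The 3 windows are shown because they hold the E-box, and both a gene of the V1 sector and genes of the V0 sector are among them. They lie on the minus strand of chr16:44139210-44139509, chr4:117887280-117887579 and chr8:105566015-105566314. Each is written 5' to 3' along the gene with its E-boxes in capitals.
Atp6v1a: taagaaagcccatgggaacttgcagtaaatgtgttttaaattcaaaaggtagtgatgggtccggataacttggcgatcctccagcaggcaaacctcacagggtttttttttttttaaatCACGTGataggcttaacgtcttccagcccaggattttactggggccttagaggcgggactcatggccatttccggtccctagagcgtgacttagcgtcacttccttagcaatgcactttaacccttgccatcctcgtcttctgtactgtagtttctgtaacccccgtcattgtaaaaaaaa
Atp6v0b: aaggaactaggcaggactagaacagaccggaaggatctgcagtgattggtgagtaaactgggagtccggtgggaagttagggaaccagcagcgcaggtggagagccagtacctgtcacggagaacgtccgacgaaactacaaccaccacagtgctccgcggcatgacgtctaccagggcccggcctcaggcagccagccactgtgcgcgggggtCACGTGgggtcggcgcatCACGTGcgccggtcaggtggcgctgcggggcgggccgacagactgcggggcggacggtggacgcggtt
Atp6v0d1: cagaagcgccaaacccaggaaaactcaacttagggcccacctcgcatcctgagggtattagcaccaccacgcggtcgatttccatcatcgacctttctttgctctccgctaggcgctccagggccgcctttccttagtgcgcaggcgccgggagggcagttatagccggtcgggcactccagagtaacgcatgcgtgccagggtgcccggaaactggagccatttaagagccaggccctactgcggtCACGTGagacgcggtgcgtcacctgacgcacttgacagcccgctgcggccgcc

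Atp6v0b held 2 E-boxes, which began 36 and 18 bases before the start. The single E-box of Atp6v1a began 131 bases before the start and that of Atp6v0d1 3 bases before it. All 3 genes also held the longer form TCACGTG, which overlaps the E-box and was present in 4.29% of all genes and 3.77% of windows. The GC box GGGCGG was found in 5 of the 7 genes, that is in Atp6v1d, Atp6v1e1, Atp6v1f, Atp6v0b and Atp6v0c, beside 38.2% of all genes and 35.7% of windows. TATAAA was found in Atp6v1e1 only among the 7, beside 15.7% of all genes and 13.6% of windows. Of the 3 genes with an E-box, Atp6v1a was detected in 11 cells and the other 2 in all 14. Outside the chosen set, 1 of 7 other subunits and accessory proteins with an entry held the E-box, namely Atp6v0e. Among isoforms of specialised tissues it was found in 0 of 5. A match is a string of letters in a window and is not evidence of binding.

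The head of V1 is a ring in which the A subunit, coded by Atp6v1a, holds the catalytic sites and the B subunit, coded by Atp6v1b2 in brain, binds ATP without splitting it. For Atp6v1a the signal was 6.70 at its lowest, in cell 13, 1508 at the median and 5746 at its highest, in cell 2. Detected signals lay between 955.4 and 5746, and the 3 undetected ones, in cells 5, 13 and 14, at 32.4 or below. The split used this same signal, so the gap is a description only. For Atp6v1b2 the signal was 5517 at its lowest, in cell 10, 11047 at the median and 30410 at its highest, in cell 5 (13.41 ± 0.74, mean log2 signal ± SD, n = 14). By this probe set Atp6v1b2 was detected in all 14 cells within a 5.51-fold range. Atp6v1a, whose product alternates with that of Atp6v1b2 in the ring, was not detected in 3. In cell 13, which lacked detection of Atp6v1a, other probe sets of Atp6v1b2 were also undetected, at 1.55 and 43.8. The contrast between the A and B subunits in that cell thus depends on the probe set.

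The 3 cells without Atp6v1a were the 3 with the fewest detected probe sets. A second probe set of Atp6v1a was below the threshold in the same 3 cells and also in cells 3 and 11, where its signals were 97.5 and 2.14 and those of the first were 2357 and 988.7. In cells 13 and 14 the other 8 measured genes were all detected. The part of the number of detected probe sets in the missing Atp6v1a signal was not tested.

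The central shaft that turns inside this ring is made of the D and F subunits. Atp6v1d had a signal of 2463 at its lowest, in cell 11, 11775 at the median and 28190 at its highest, in cell 8 (13.36 ± 0.91, n = 14). Atp6v1f had a signal of 182.7 at its lowest, in cell 5, 10766 at the median and 53724 at its highest, in cell 13. Both genes were detected in all 14 cells, but the Atp6v1f signal of cell 5 was far below the next lowest, which was 2721 in cell 8. The cell with the lowest signal of 1 shaft gene was not that of the other.

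Stators hold the ring still against the rotating shaft, and they are built from the E and G subunits with the C and H subunits at their foot. Atp6v1e1 had a signal of 12329 at its lowest, in cell 2, 21729 at the median and 68193 at its highest, in cell 13 (14.56 ± 0.76, n = 14). Atp6v1c1, whose product leaves the complex when the pump is taken apart to save ATP, had a signal of 9139 at its lowest, in cell 12, 21367 at the median and 56374 at its highest, in cell 5 (14.27 ± 0.78, n = 14). Both were detected in every cell with a high signal. Atp6v1h, whose product bridges V1 and V0 and silences V1 when it is detached, had a signal of 1.78 at its lowest, in cell 5, 4974 at the median and 10348 at its highest, in cell 14. Cell 5 was the single cell without detection of Atp6v1h, and the other 13 lay between 635.1 and 10348.

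In the membrane sector, Atp6v0b codes for a proteolipid of the ring and Atp6v0d1 for the subunit that couples the ring to the shaft. Atp6v0b had a signal of 9798 at its lowest, in cell 4, 16927 at the median and 38019 at its highest, in cell 11 (14.15 ± 0.58, n = 14). This was the smallest SD and, at 3.88-fold, the smallest range among the 9 measured genes. Atp6v0d1 had a signal of 122.7 at its lowest, in cell 5, 14320 at the median and 49486 at its highest, in cell 13. Cell 5 again stood below the rest, where the next lowest signal was 4304 in cell 8.

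**Figure D1:**
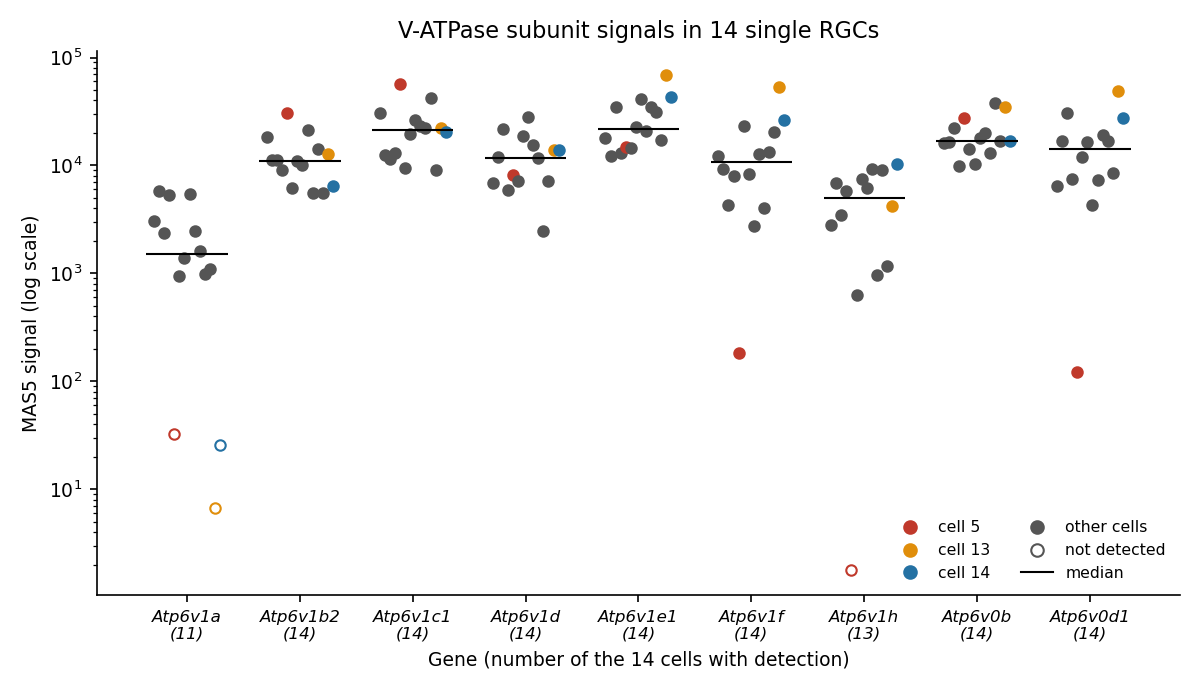
MAS5 signal (log scale) of the 9 measured V-ATPase subunit genes in each of 14 single RGCs, 1 point per cell, with open points below the detection threshold and a bar at the median. Cells 5, 13 and 14 are coloured, and cell 5 lies lowest for Atp6v1f (182.7), Atp6v1h (1.78) and Atp6v0d1 (122.7) but highest for Atp6v1b2 (30410) and Atp6v1c1 (56374).

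Cell 5 was the exception in both directions. It held 7 of the 9 measured genes, against 8 in cells 13 and 14 and 9 in the other 11 cells. Its signals of Atp6v1f and Atp6v0d1 passed its threshold of 65.3 but were below 1000, which every other cell exceeded for these genes. At the same time its signals of Atp6v1b2 and Atp6v1c1 were the highest of all cells. Over the 9 genes its mean log2(signal + 32) was 10.93, whereas the other 13 cells lay between 12.63 and 13.60. Cell 5 also had the fewest detected probe sets of all cells. It held 2 of 8 measured microglia markers, where no other cell held any. The part of either in its low signals was not tested.

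Detection of the subunits was set against all genes. Of the 9 measured genes, 7 were detected in all 14 cells, where 2.64% of 18193 genes were. All 9 were detected in at least 7 cells, where 24.8% of all genes were. At a fixed signal of 1000 in every cell, 5 of the 9 remained, namely Atp6v1b2, Atp6v1c1, Atp6v1d, Atp6v1e1 and Atp6v0b, where 1.67% of all genes did. The median was 14 cells per subunit and 1 cell over all genes. Counts for V1 were 5 of 7 measured genes in all 14 cells, and for V0 2 of 2. Without cells 3 and 6, which held rod transcripts, the same 7 genes were detected in all of the remaining 12 cells, and without cell 5 Atp6v1h joined them in the remaining 13.

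Signals of different probe sets cannot be ranked against each other, because each binds its target with its own strength. The genes were therefore ordered by cells alone, with 7 genes tied at 14, then Atp6v1h at 13 and Atp6v1a at 11. This order depends on the probe set too. Atp6v1d was detected in all 14 cells by each of 3 probe sets and Atp6v0b by each of 3. Of the 4 probe sets of Atp6v1e1, 3 were detected in all 14 cells and 1 in none. Atp6v1c1 had 2 probe sets with 14 cells and 1 with 13, and Atp6v1b2 1 with 14, 2 with 13 and 1 with 0. In both cases the probe sets with 13 cells missed cell 13. Atp6v1h had 2 further probe sets, which were detected in no cell, so its 13 cells rest on a single one. Atp6v1f and Atp6v0d1 had only 1 probe set each.

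Where 2 probe sets of a gene were each detected in some cell, their log2(signal + 32) could be compared over the 14 cells. The 16 such pairs had a median Pearson r of 0.80, from 0.15 to 0.98, and 10 of them reached 0.5. The 3 pairs of Atp6v1d had r of 0.90 to 0.97 and the 3 pairs of Atp6v1e1 0.79 to 0.86. For Atp6v0b, 2 probe sets had r of 0.89 with each other and 0.15 and 0.18 with the third, whose signals were lower. All 3 probe sets of Atp6v0b, and the chosen one of Atp6v1e1, carry a suffix by which the array's makers mark probe sets that may bind transcripts of more than 1 gene.

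**Figure D2:**
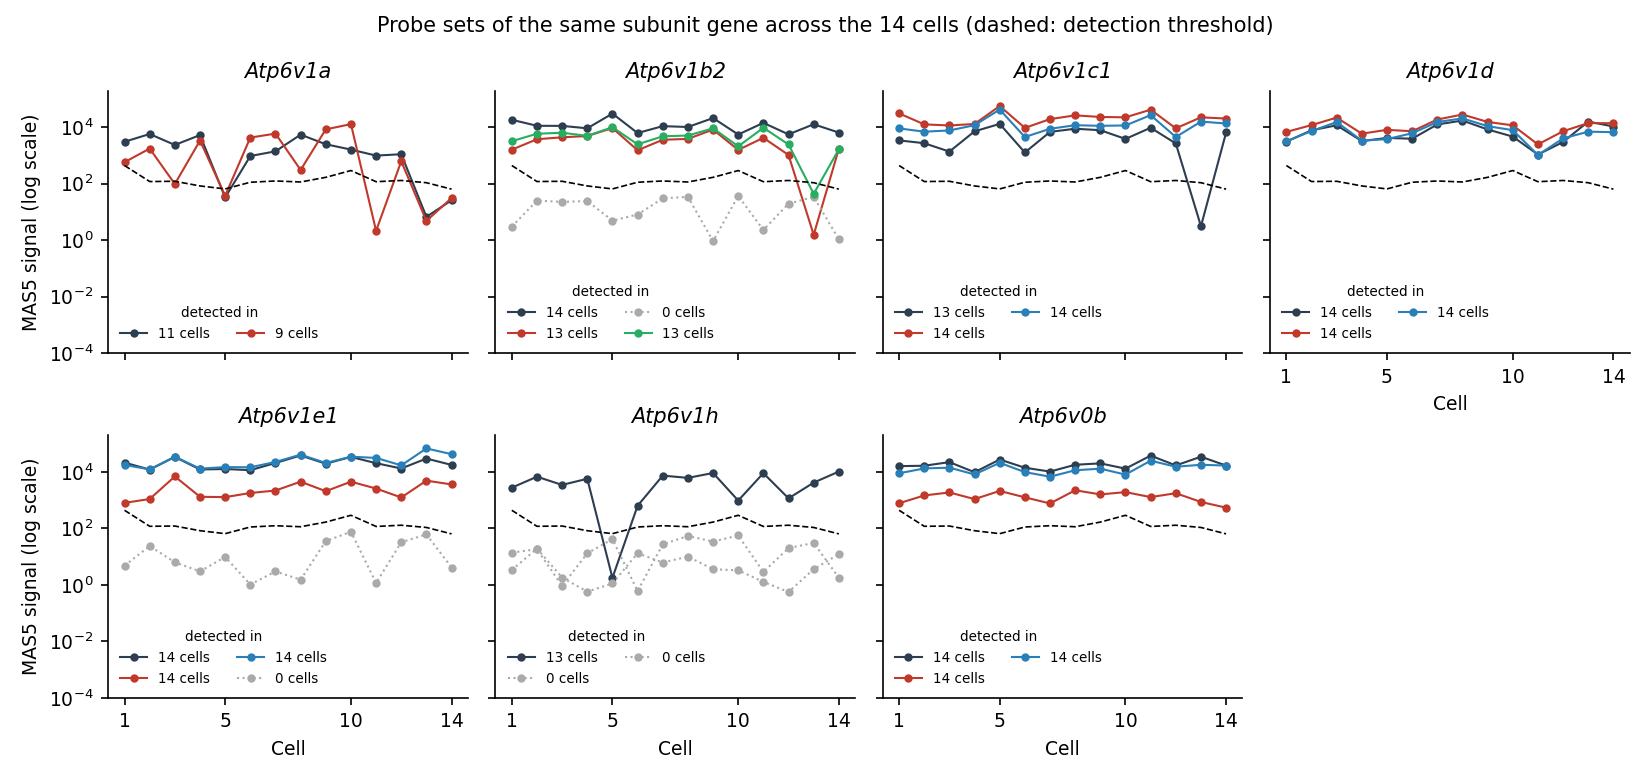
MAS5 signal (log scale) against cell number for the 7 subunit genes with several probe sets, 1 line per probe set, with the detection threshold of each cell dashed and probe sets detected in 0 cells dotted grey. The 3 lines of Atp6v1d run together, and the lines of Atp6v1b2 and Atp6v1c1 separate in cell 13, where some of their probe sets fall below the threshold.

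Subunits and accessory proteins outside the 10 chosen genes were then counted, with 10 of 10 measured. Of these, 5 were detected in all 14 cells, 3 in 7 to 13 cells and 2 in 1 to 6 cells, with a median of 13.5 cells. Those in all 14 cells were Atp6v1g2, a G subunit of the stators known from neurons, Atp6v0a1, the a subunit of synaptic vesicles and of most neuronal membranes, Atp6v0e2, a small membrane subunit, and the accessory genes Atp6ap1 and Atp6ap2. Rnasek, whose product associates with the pump, was detected in 13 cells.

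For several positions in the complex the mouse has more than 1 gene, and the cells held them unevenly. Of the G subunits, Atp6v1g2 was detected in 14 cells, at 9320 to 55160. The more widely used Atp6v1g1 was detected in 12, with signals of 1.22 in cell 5 and 0.53 in cell 14. Another probe set of Atp6v1g1 had a signal of 1548 in cell 14 and was undetected in cells 5, 11 and 13. Whether Atp6v1g1 was detected in cells 11, 13 and 14 thus depends on the probe set. Of the e subunits, Atp6v0e2 was detected in 14 cells, at 5757 to 41087. Its paralog Atp6v0e was detected in 4 cells, at 9639, 4060, 514.6 and 784.3 in cells 2, 6, 9 and 12, and reached 60.4 at most in the other 10. These 2 groups of cells were split by this same signal, so the gap between them is a description only.

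Of the a subunits, Atp6v0a1 was detected in 14 cells, at 5095 to 26145. Its other probe sets were detected in 5, 2 and 0 cells. Atp6v0a2, known from the Golgi and endosomes, was detected in 7 cells, at 803.2 to 10411. The other probe sets of Atp6v0a2 were detected in 2 and 0 cells. The 14 and 7 cells thus rest on a single probe set each. Tcirg1, the a subunit of the osteoclast, was detected in 3 cells, but only cell 7 stood out at 1442, since the lowest detected signal, 139.8, was below the highest undetected signal of 172.5. Thresholds differ between arrays, which lets such weak signals fall on either side.

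Isoforms of specialised tissues, such as kidney, bone, epididymis and testis, were not detected. The list was Atp6v1b1, Atp6v1c2, Atp6v1e2, Atp6v0a4 and Atp6v0d2, and 0 of these 5 measured genes passed the threshold in any cell. Their highest signal was 99.3, for Atp6v0d2 in cell 1. Of all 18193 genes, 7605 were likewise detected in no cell. Atp6v1g3 has no probe set in the annotation and was not measured here. Each of the detected partners Atp6v1b2, Atp6v1c1, Atp6v1e1, Atp6v0a1 and Atp6v0d1 was detected in all 14 cells by its chosen probe set. An isoform that was not detected may still have been present below the reach of its probe set.

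**Figure D3:**
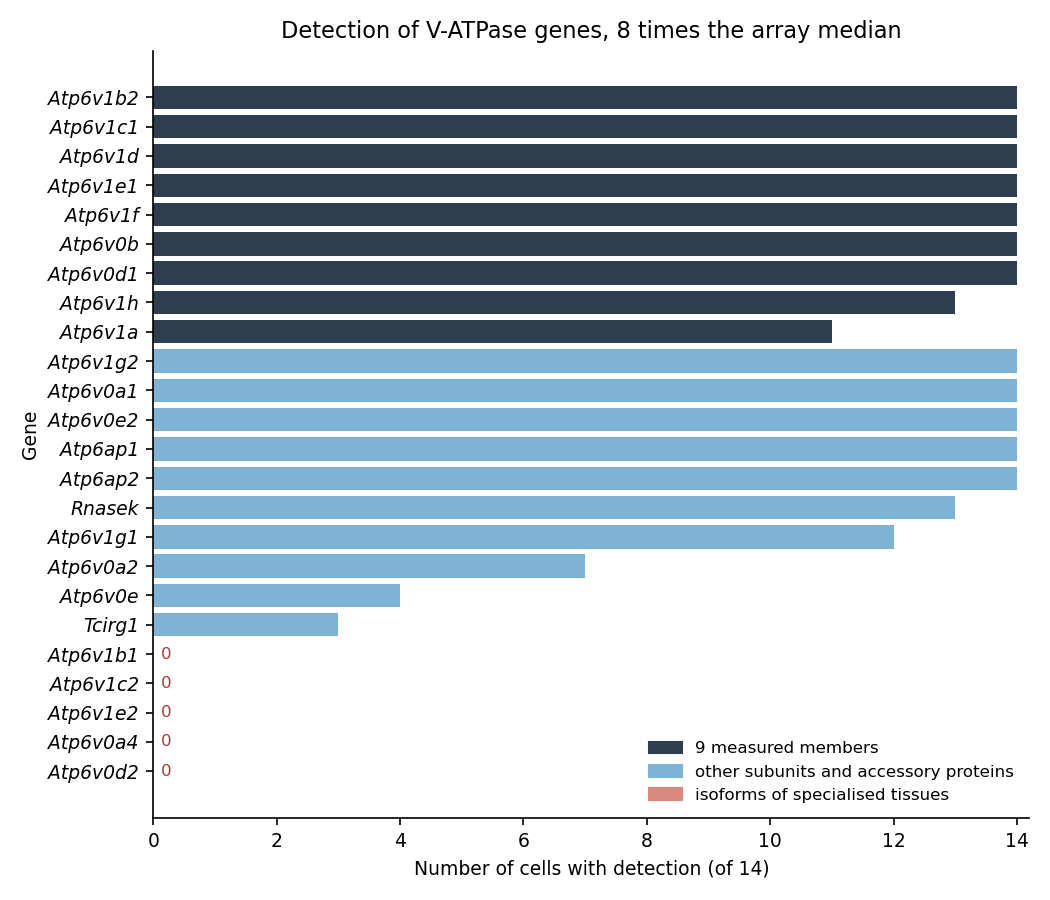
Number of the 14 cells in which each V-ATPase gene was detected at 8 times the array median, for the 9 measured members of the chosen set, 10 other subunits and accessory proteins, and 5 isoforms of specialised tissues. The 9 members range from 11 to 14 cells, the other subunits from 3 to 14, and the 5 isoforms stand at 0.

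Genes for assembly and regulation of the pump were counted in the same way. Of 9 measured genes 0 were in all 14 cells, 7 were in 7 to 13 cells and 2 in 1 to 6 cells, with a median of 11 cells. The latter were Ccdc115, an assembly factor of the endoplasmic reticulum, and Dmxl1, a subunit of a complex that brings V1 and V0 together, both in 5 cells. In Dmxl1 the lowest detected signal, 118.0, was below the highest undetected signal, 331.1. Tldc2 was not measured here.

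Vesicular transporters, which use the gradient of the pump, were represented mainly by 1 gene. Slc17a6, the vesicular glutamate transporter of RGCs, was detected in 14 cells, at 528.1 to 39522. Slc32a1, the transporter of inhibitory transmitters, was detected in 3 cells. Slc17a7, another vesicular glutamate transporter, was detected in cells 3 and 6 only, the 2 cells with 11 of 13 rod markers, and the part of the rod transcripts in this was not tested. In Slc32a1 the lowest detected signal, 85.9, was below the highest undetected signal, 145.1. The transporters for monoamines, acetylcholine and nucleotides, Slc18a1, Slc18a2, Slc18a3 and Slc17a9, were detected in no cell. Detection in no cell held for 7605 of all 18193 genes. Slc17a6 is also in the RGC marker list.

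Genes for chloride and cation transport in endosomes and lysosomes were counted too, since this transport affects how far the pump can acidify them. Of 9 measured genes, 7 were in 7 to 13 cells and 2 in none, with a median of 9 cells. The 2 were Tpcn1 and Tpcn2, which code for two-pore channels, and 7605 of all 18193 genes were in no cell. Of 11 measured lysosomal membrane proteins and hydrolases, 2 were in all 14 cells, 6 in 7 to 13 and 3 in 1 to 6, with a median of 13 cells. Ctsb, a protease, and Gaa, which breaks down glycogen, were the 2 in all cells, and Lamp2, Glb1 and Npc1 were in 5, 6 and 6 cells.

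Other complexes that make or spend ATP served as a yardstick of detection. Of 15 subunits of the mitochondrial ATP synthase, a rotary machine of related build that makes ATP, 8 were in all 14 cells and 7 in 7 to 13 cells, with a median of 14 cells. Of 4 measured subunits of the sodium pump, Atp1b1 was in all 14 cells, 2 were in 7 to 13 and Atp1a4 in none. Cell 5 also lacked detection of the ATP synthase genes Atp5c1, Atp5g1 and Atp5o, so missing subunits in this cell were not limited to the V-ATPase.

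Whether the signals of subunits move together over cells was described by Pearson's r of log2(signal + 32) between pairs of the 9 measured genes. Cells share the scaling of their arrays and differ in the outcome of amplification, so r is a description and no p is given. The 36 pairs had a median r of -0.037, from -0.56 to 0.81, and 17 were above 0. Over 23684403 pairs of genes detected in at least 4 cells the median was 0.086. An r of at least 0.5 was reached by 5 of the 36 pairs, or 13.9%, against 7.73% of those background pairs. The median r of the subunit pairs was thus close to that of the background pairs. The subunits were detected in 11 to 14 cells, so the 2 sets of pairs were not matched for detection.

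Of the 5 pairs with an r of at least 0.5, 4 were below it without cell 5. Atp6v1f and Atp6v0d1, which code for neighbours along the shaft, had r of 0.81 over 14 cells and 0.39 without cell 5. Atp6v1h with Atp6v0d1 went from 0.73 to 0.051, and Atp6v1f with Atp6v1h from 0.64 to -0.042. Atp6v1b2 with Atp6v1c1, both highest in cell 5, had 0.69 and 0.55 without it, and Atp6v1c1 with Atp6v0b 0.50 and 0.43. Without cell 5 the lowest r was that of Atp6v1a with Atp6v1f, at -0.76. The 36 pairs then had a median of 0.067, beside 0.059 over the background pairs. A further 3 pairs reached 0.5 without cell 5, namely Atp6v1b2 with Atp6v1h at 0.58, Atp6v1e1 with Atp6v0b at 0.57 and Atp6v1e1 with Atp6v0d1 at 0.53. This made 4 of 36 pairs, or 11.1%, beside 7.39% of the background pairs.

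**Figure D4:**
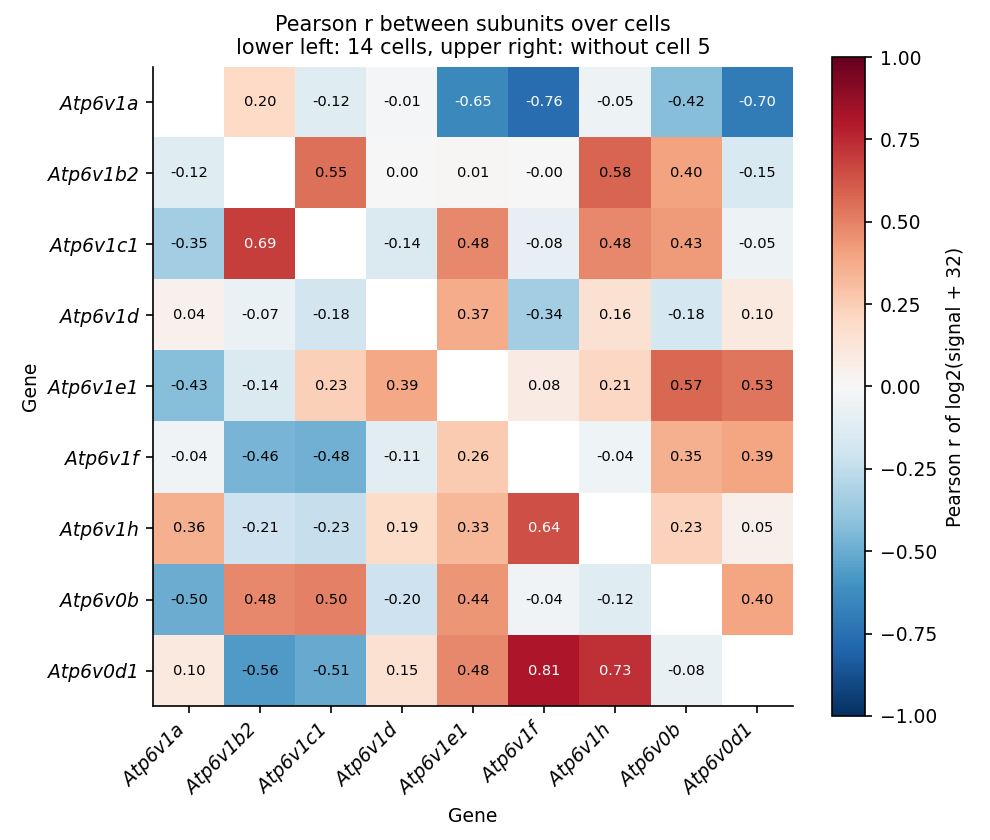
Pearson r of log2(signal + 32) between each pair of the 9 measured subunit genes, over all 14 cells in the lower left and over 13 cells without cell 5 in the upper right, from blue (negative) to red (positive). The red block of Atp6v1f, Atp6v1h and Atp6v0d1 (0.64 to 0.81) in the lower left is not seen in the upper right, where the same pairs have -0.042 to 0.39.

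The signals also varied with the number of probe sets detected in a cell, in different directions for different subunits. For Atp6v1a r with this number was 0.63, and 0.54 without cell 5. For Atp6v1c1, Atp6v1e1 and Atp6v0b it was -0.62, -0.62 and -0.64, and -0.50, -0.84 and -0.60 without cell 5. The other 5 genes lay between -0.34 and 0.31, and without cell 5 between -0.59 and -0.068, the lowest being Atp6v0d1, which had 0.12 over all 14 cells. For the mean of the 9 genes r was 0.21 with cell 5 and -0.44 without it, so this relation rests on that cell. MAS5 scales every array to the same trimmed mean, so signals are relative to the other transcripts of the cell. The share of that scaling in these values was not tested.

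**Figure D5:**
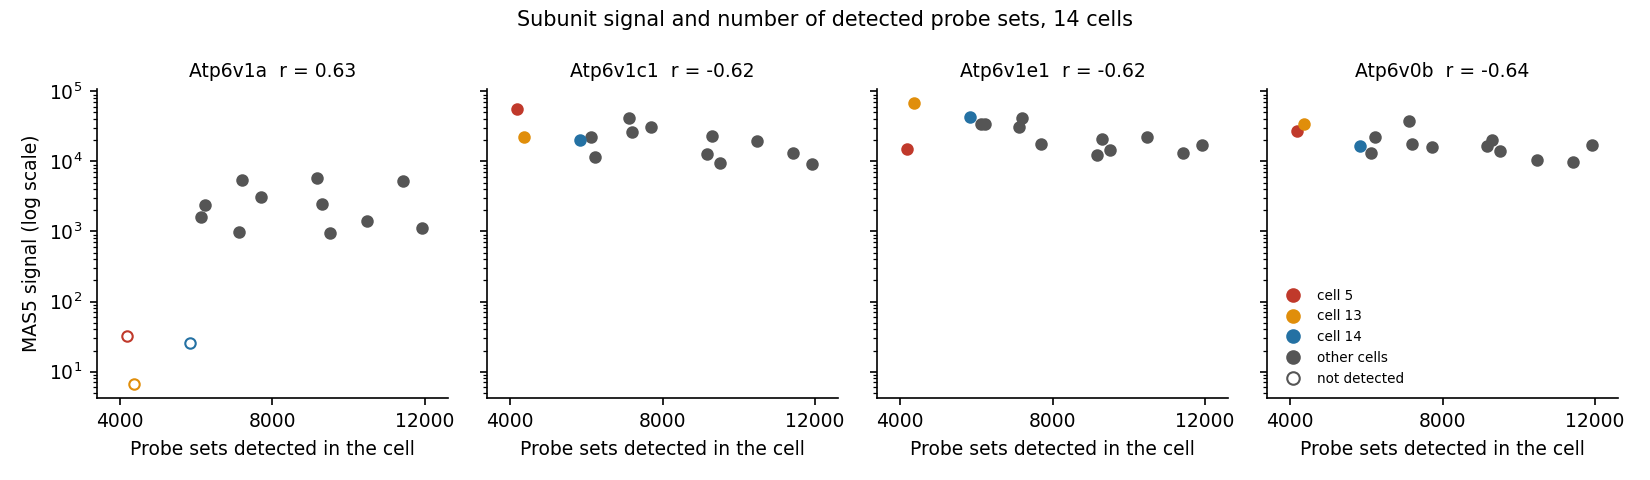
MAS5 signal (log scale) against the number of detected probe sets in each of 14 cells, for the 4 subunit genes whose r with that number was furthest from 0, with open points below the detection threshold. Atp6v1a (r of 0.63) is undetected in the 3 cells with the fewest probe sets, and Atp6v1c1, Atp6v1e1 and Atp6v0b (r of -0.62 to -0.64) tend to lower signals in cells with more.

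Pvalb, the gene behind the Cre line, was compared with the subunits after their values had been seen. Its r was 0.88 with Atp6v1f, 0.74 with Atp6v0d1 and 0.71 with Atp6v1h over 14 cells. Without cell 5 these were 0.63, -0.065 and -0.014. The relation with Atp6v0d1 and Atp6v1h thus rests on cell 5, and that with Atp6v1f remained positive over the other 13 cells, where the other 8 genes lay between -0.39 and 0.34.

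Among 4483 genes outside the V-ATPase lists that were detected in at least 7 cells, 5 genes had the profile most like the mean of the 9 subunits. They were Pdhb, a subunit of pyruvate dehydrogenase, with r of 0.96, Chrna6, a nicotinic receptor subunit, with 0.95, Gdi2, a regulator of Rab proteins, with 0.94, the neuronal membrane glycoprotein gene Gpm6a with 0.93, and Apoo, a protein of the inner mitochondrial membrane, with 0.93. The median r of the 4483 genes was 0.20. All 5 were detected in 13 cells and undetected in cell 5, with signals there of 0.84 to 33.6 against at least 1934 in every other cell. Without cell 5 their r was 0.80, 0.75, 0.64, 0.67 and 0.54, beside a median of -0.096 over the 4483 genes. The 5 genes were picked as the highest by r over these same cells, so both comparisons with the median are a description only.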

How the data were processed

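Per the labels, oligo-dT primed cDNA of single cells was tailed, given 35 PCR cycles and hybridised to Affymetrix arrays. The study used more than 1 facility, without stating in the sources used here which array went to which. The authors deposited 1 intensity per probe set on a linear scale, which came from MAS5, of a version not stated in those sources. A 2% trimmed mean of 500.0 was found on every array. The number of arrays limits the precision.

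Of 45101 probe sets, 64 controls were left out. Names came from the array's annotation, in which 34945 probe sets had 1 gene, 932 had several and 9160 were unnamed here. Correlations used log2(signal + 32), and means ± SD plain log2. All listed members, the list genes in all, no or 1 to 6 cells, and the 5 genes most like the member mean were named, and genes beyond these, such as those set beside Pvalb or missing in cell 5, were named after their values were seen. The members and lists were chosen with earlier results of these data known. Detection thresholds of 4 and 16 times the array median, a fixed signal of 1000, any or the mean of the probe sets, quantile normalization, pseudocounts of 8 and 128, and leaving out cells were tried as alternatives. Scripts were tested on simulated data and run in Python 3.11.15 with numpy 2.4.6, pandas 2.3.3, scipy 1.17.1 and matplotlib 3.10.9.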

Additional observations from a re-analysis of the deposited data

How the results depend on the processing

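The number of measured subunits detected in all cells was 7 and lay between 5, at a fixed signal of 1000, and 8, without cell 5 or without cells 5 and 13. The number in at least 7 cells was 9 under all alternatives but the mean of the probe sets, which gave 8. That alternative averages in probe sets that were never detected, left Atp6v1h in 2 cells and gave a median of 8 subunits per cell in place of 9. The median number of cells per subunit was 12 without cells 3 and 6 and 12 without cells 5 and 13, which is every cell that remained. The median pairwise r lay between -0.043 and 0.12, the latter with quantile normalization. The r of the subunit mean with the number of detected probe sets, 0.21, was -0.44 without cell 5, -0.36 without cells 5 and 13 and 0.52 with quantile normalization, and without cell 5 was an alternative chosen after seeing the data. No paired analysis was possible because all cells form 1 group. A gene not detected in a cell may lie below the reach of its probe set.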
